A study of Arabidopsis thaliana with 6 samples.

Results

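The transcripts described here were, by stage means, level between dry and hydrated pollen of Arabidopsis thaliana and higher in growing pollen tubes. They were chosen on the measured values themselves. On the log2 scale, with values below 32 set to 32, a probe set had to be higher by at least 2 in tubes than in hydrated pollen, to differ by no more than 0.7 between hydrated and mature pollen, and to read above 200 on both tube arrays. This was met by 132 of the 22746 probe sets that are not controls. Of these, 9 belonged to a list of 14 named genes that the choice leaves out, and the other 5 genes on that list did not meet the limits. The 123 members that remain are 0.541% of the probe sets. The platform annotation gives 1 gene to 49 of them, standing for 48 genes, and several genes to 5, while 69 are unnamed here. No sequence of any member was used here.

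All samples were pollen of ecotype Columbia from plants aged 50 days, on single-colour Affymetrix ATH1 arrays with 2 arrays for each of 3 stages. Mature pollen was taken dry with a vacuum device. Hydrated pollen was shaken out of flowers into a medium with 15% sucrose, spun down and kept as a thin film at 25 °C for 45 min. Tubes were made by the same route but kept for 4 h, to a mean length of about 150 µm, and were then caught on a 50 µm mesh that let ungerminated grains through, a step the hydrated samples did not have. Germination, time in medium and this filtering therefore cannot be told apart in any tube value below. In such bulk RNA, fewer cells of a type and less RNA per cell cannot be told apart either.

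A pollen grain holds a large vegetative cell, which grows the tube, and a pair of sperm cells carried inside it. Much of the machinery for germination is stored as RNA before the grain dries, and the vegetative nucleus goes on transcribing as the tube elongates at its tip. Tip growth joins secretion of wall material, small GTPases of the ROP family, receptor-like kinases, actin and microtubules, and uptake of nutrients from the medium or the pistil.

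The arrays had medians between 14 and 24.3 in arbitrary units, and the level taken here as background, the 60th percentile of the probe sets, ranged from 19.7 to 34.1. Of 10 markers of the vegetative cell, 8 were named here, and all 8 read above that percentile on every array. The sperm cell histone MGH3, the 1 named of 7 sperm markers, did so as well. Of 27 markers of photosynthetic tissue, floral organs, tapetum and epidermis, 6 were named here. Their highest signal on any array was 50.8, and their summed level ranged from 81.8 to 111.4 in mature pollen, from 77.8 to 117.2 in hydrated pollen and from 52.4 to 185.6 in tubes. Of these 6, 3 read above the 60th percentile on the first tube array, 2 on the first hydrated array and 1 on each other array. Each epidermis marker was unnamed here, so that tissue was not checked.

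**Figure D1:**
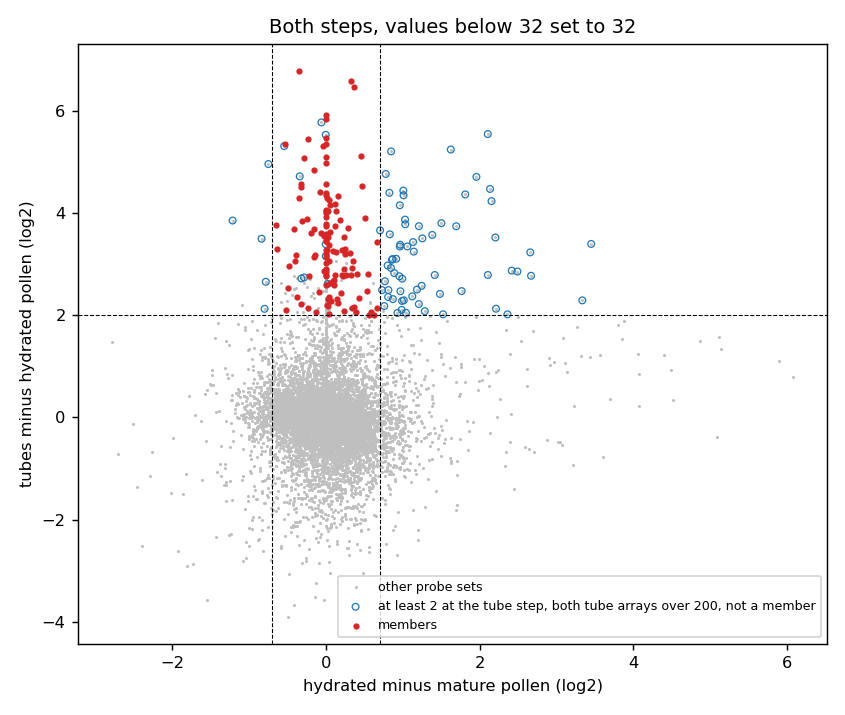
Each point is a probe set, with hydrated minus mature pollen on the horizontal axis and tubes minus hydrated pollen on the vertical axis, both log2 of stage means with values below 32 set to 32. Red points are the 123 members, bounded by the dashed limits of the rule, and blue rings are other probe sets at least 2 higher in tubes with both tube arrays above 200, of which 9 within the limits are the genes left out.

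Among all probe sets at least 2 higher in tubes than in hydrated pollen and above 200 on both tube arrays, 202 in number, 132 were level between mature and hydrated pollen, 65 were higher by more than 0.7 in hydrated pollen and 5 were lower by more than 0.7. The level ones were 65.3% of the 202, against 83.2% of all 2414 probe sets above 200 on both tube arrays. These counts describe the limits used and carry no test. Close to the limits, the choice is arbitrary. The lowest rise inside was 2.003, for the unnamed 247720_at, and the highest outside was 1.999, for 248608_at. At the hydration step, the beta-tubulin gene TUB7 lay inside at 0.67 and 267410_at outside at 0.71, and on the low side the subtilase AT5G45650 lay inside at -0.65 and 261673_at outside at -0.75. On the dimmer tube array AT4G25680 read 204.5 and was kept, while 247571_at read 195.7 and was not.

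The size of the rise varied widely among the members. The difference between tubes and hydrated pollen ranged from 2.003 to 6.77 on the log2 scale, with a median of 3.27. It lay from 2 to under 3 in 48 members, from 3 to under 4 in 42, from 4 to under 5 in 20, from 5 to under 6 in 10, and above that in 3. The mean tube signal ranged from 209.35 to 6317.8 with a median of 512.6, and 33 members had means above 1000. Together the members held between 0.128% and 0.175% of an array's summed signal in both pollen stages, and 1.98% and 2.09% of it on the tube arrays.

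The starting level differed as well. In 39 members both hydrated arrays read below 32, in 26 members all 4 pollen arrays did, and for those 26 the level hydration step is that of values set to 32. In 58 members neither hydrated array was below 32. Against the 60th percentile, 56 members lay above it on all 4 pollen arrays and 21 on none of them. The median tube signal was 514.55 in members with both hydrated arrays below 32 and 630.575 in members with neither below it. At the upper end, 12 members had a hydrated mean above 200.

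**Figure D2:**
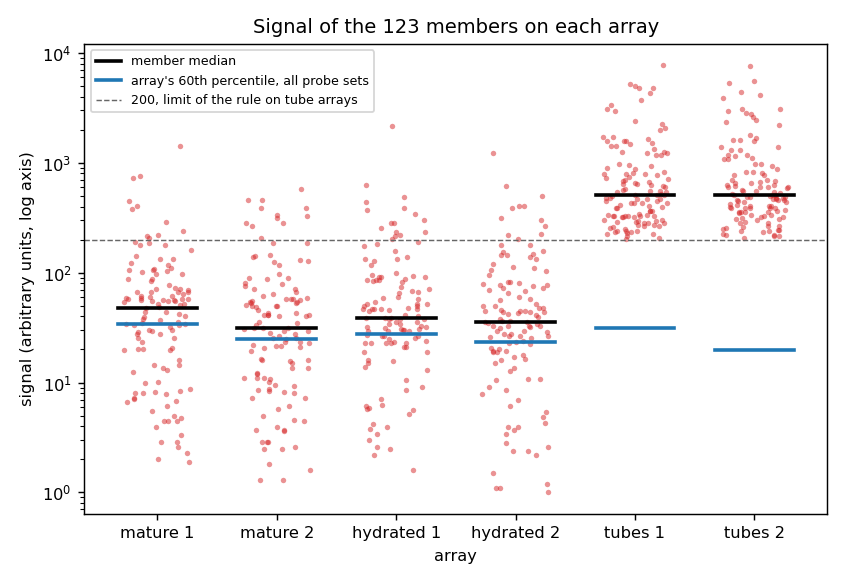
Every member's signal is shown on each of the 6 arrays on a log axis in arbitrary units, with the member median as a black bar and the array's 60th percentile over all probe sets as a blue bar. Member medians lie between 31.4 and 47.4 on the pollen arrays and at 514.3 and 508.3 on the tube arrays.

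All 123 members read higher on both tube arrays than on both hydrated arrays, against 20% of the 11412 probe sets tested, and in 122 both tube arrays also exceeded all 4 pollen arrays. The exception was 259018_at, at 286.2 on the second mature array and 263.7 on the first tube array. The share of tested probe sets with both tube arrays above all 4 pollen arrays is not given here. The rule all but fixed both counts of members in advance, so nothing is read from them. The 21 members above the 60th percentile on none of the pollen arrays were among the tested probe sets only through their tube arrays. In the moderated test of limma with stage means over all arrays, 115 of the 123 were called higher in tubes, where 2.54% of all tested probe sets were. The rule used the same contrast, so nothing is read from either count. The count of members was 27 without the first tube array and 39 without the second, and without the intensity trend it was 0, with 120 higher at an unadjusted p under 0.05. Of the 8 not called, 3 have a single gene and appear below, namely TRM18, AT4G25390 and 1 of the 2 probe sets of SDRB. With the replicate number as a block, limma called all 123 members and 775 of all tested probe sets. The calls on these 8 therefore depend on the settings of the fit, and no member is graded by them. Hydrated and mature arrays overlapped in 87 members, or 70.7%, against 66.4% of tested probe sets, and 0 were called at hydration, a step at which 0.526% of tested probe sets were called higher and 0.0526% lower. The rule limited this step as well, but only for the stage means. Between arrays of 1 number, hydrated minus mature ranged from -1.30 to 1.06 on number 1 and from -1.16 to 1.17 on number 2.

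The rule was also applied to the arrays of 1 replicate number, and the choice was read on the other. All 6 arrays entered the rule that chose the members, so none lies outside it. Of the probe sets chosen on number 1 and on number 2, 101 and 111 were members. No separate support for the members is therefore read from the values that follow. Applied to the 3 arrays numbered 1 alone, the rule chose 151 probe sets. On the arrays numbered 2, 126 of these, or 83.4%, were at least 2 higher in tubes than in hydrated pollen, and 0 were lower. Among all 2620 probe sets above 200 on the first tube array, 8.24% were that much higher on the arrays of number 2. Choosing on number 2 gave 148 probe sets, of which 123, or 83.1%, were at least 2 higher on number 1, against 7.68% of 2683. The level hydration step held on the other arrays in 85.4% and 79.1% of those chosen, near the 81.2% and 77.6% of all bright ones. With 1 array per stage on each side there is no test, and the labels do not say that arrays of 1 number came from the same plants or day.

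**Figure D3:**
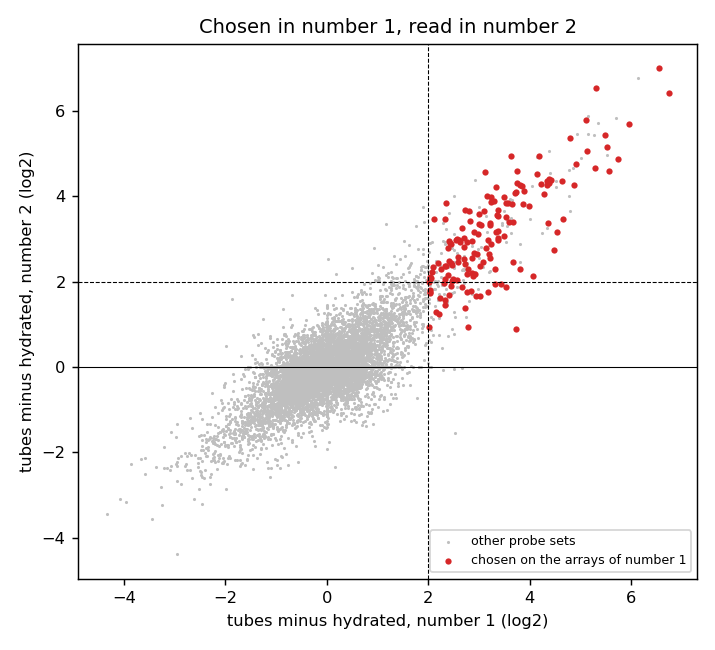
The axes give tubes minus hydrated pollen on the log2 scale, values below 32 set to 32, on the arrays of number 1 and of number 2. Red points are the 151 probe sets chosen on number 1 alone, all of which lie above 0 on number 2, with 126 at or above the dashed line at 2.

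Below, levels are the signal on each array, in replicate order. A fold is the ratio of the geometric means of tubes and hydrated pollen with values below 32 set to 32, and it is written "at least" where a hydrated array read below 32. Folds describe how members were chosen and carry no test. What the 30 members grouped by role are known for is background.

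Several of the highest folds belonged to genes with no role given here. AT5G11820 read 29.7 and 16.2 in mature pollen, 23 and 6.9 in hydrated pollen, and 1426.2 and 1394.2 in tubes, at least 44.1-fold higher. AT3G15860 went from 25.7 and 2.6 through 49.3 and 39.1 to 1729.5 and 1320.8 (34.4-fold), and AT5G15560 from 27.6 and 25.4 through 16.2 and 19.5 to 1519.7 and 779.8 (at least 34.0-fold). All 4 pollen arrays lay within background or close to it for AT5G11820 and AT5G15560. In AT3G15860 both hydrated arrays lay above their 60th percentiles, 27.5 and 23.5, and above both mature arrays. Both of its mature values were raised by the rule, so its hydration step of 0.456 on the log2 scale is a lower bound. In each of these genes the tube arrays lay far above the pollen arrays. AT4G02160 read 645.2 and 631.8 in tubes and AT5G20310 read 631.2 and 623.2, each pair close together, from no more than 33.9 on any pollen array. Their folds were at least 19.7 and at least 19.04.

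AT3G02125 read 6.8 and 3.7 in mature pollen, 3.8 and 16.3 in hydrated pollen, and 426.9 and 547.3 in tubes, at least 15.1-fold. AT1G63530 and AT2G24460 stood out by the distance between their tube arrays, which read 808.3 and 354.5 for the former and 718.9 and 232.9 for the latter. Their folds were at least 16.7 and at least 12.3, and the highest pollen signal was 22.7 for AT1G63530 and 34.6 for AT2G24460. The tube arrays were over 2-fold apart in 12 members, 9.76%, against 8.66% of all 2414 probe sets above 200 on both. Neither tube array was the brighter one throughout, as 58 members were higher on the first and 65 on the second.

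A pair of brighter genes without a role here started from a clear signal in pollen. AT5G46200 read 381.1 and 264.5 in mature pollen, 391.9 and 267.1 in hydrated pollen, and 5247.7 and 5327.6 in tubes, which is 16.3-fold and the second highest mean tube signal of the single-gene members. AT5G26100 went from 105.3 and 128.8 through 220.3 and 154.9 to 2424.9 and 1620.7 (10.7-fold). Its hydrated arrays lay above both mature arrays, at 0.67 on the log2 scale, just inside the limit of the rule.

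Both VQ motif proteins among the members had little or no signal before the tube stage. Proteins of this plant family carry a short valine-glutamine motif and are known as partners of WRKY transcription factors. AT5G08480 read 4.5 and 1.3 in mature pollen, 2.5 and 2.2 in hydrated pollen, and 1257.7 and 808.2 in tubes, at least 31.5-fold higher. AT5G46780 read 37.3 and 21.8, then 38.3 and 36.5, then 750 and 607.3, which is 18.1-fold. In both genes the tube arrays were far above the other 4, which overlapped between mature and hydrated pollen.

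Kinases and a ROP regulator made up a group of 5 with lower tube signals. AT4G13190, a receptor-like cytoplasmic kinase, was the brightest, at 142.1 and 97.9 in mature pollen, 116.7 and 139.1 in hydrated pollen and 620.4 and 1085.7 in tubes (6.44-fold). AT2G07020, a kinase with a domain related to universal stress proteins, read no more than 25.3 in pollen and 285.2 and 517.8 in tubes, at least 12.01-fold. AT3G24790, another receptor-like cytoplasmic kinase, read no more than 20.2 in pollen and 239.3 and 205.9 in tubes, at least 6.94-fold. Mature and hydrated arrays overlapped in AT4G13190 and AT3G24790, while in AT2G07020 both hydrated arrays were above both mature ones. Of these low values in AT2G07020, only the 25.3 of the second hydrated array passed its 60th percentile, 23.5. In all 3 genes the tube arrays stood apart.

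AT4G25390, a receptor-like kinase, read 16.2 and 1.3 in mature pollen, 46.4 and 2.8 in hydrated pollen, and 273.6 and 257.3 in tubes. Its hydrated arrays differed widely, and it is among the members given above as not called by limma. AT5G22400 is of the family of GTPase-activating proteins that return ROP to its inactive form. It read 14.3 and 10.2, then 3.9 and 4.9, then 232.8 and 247.1, at least 7.495-fold, with the tube arrays close together.

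Genes of RNA binding and of stress or nutrient responses were also near background before the tube stage. AT2G05160, with a CCCH zinc finger and an RNA-binding domain, read 6.1 and 15.8, then 25.4 and 8.6, then 363 and 511.7, at least 13.5-fold. AT5G13200, a GRAM-domain protein, read 4.8 and 5.7, then 37.7 and 29.1, then 476.6 and 454.3, at least 13.4-fold. AT1G04770, of a family induced by sulfur deficiency, read 4.5 and 2.5, then 47.4 and 19.2, then 565.9 and 459.4, at least 13.1-fold. In AT5G13200 and AT1G04770 both hydrated arrays were above both mature arrays, a difference that values set to 32 mostly hide. With values below 16 set to 16 instead, 16 of the 123 members no longer met the rule. AT4G29780, a nuclease-like protein, read 29.8 and 13.5, then 6.3 and 43.7, then 268.9 and 241.5, at least 6.81-fold.

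Proteases and genes of ubiquitin-like conjugation formed a further group of 5. The subtilases, secreted serine proteases, were represented by AT1G66220, at no more than 22.8 in pollen and at 472.8 and 556.3 in tubes (at least 16.03-fold). The other was AT5G45650, at 87.2 and 23.6 in mature pollen, 35.3 and 23.1 in hydrated pollen and 429.2 and 492.1 in tubes (at least 13.7-fold). AT5G45650 had its highest pollen value on the first mature array, and the other 3 pollen arrays lay well below it.

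AT1G30860, with a RING domain of the kind found in ubiquitin ligases, read 56.9 and 8.1, then 52.1 and 2.6, then 513.3 and 478.8, at least 12.1-fold. In both pollen stages the first array read far above the second. AT3G46220, which belongs to the ligases that attach the ubiquitin-like modifier UFM in animals, read 12.9 and 11, then 30.7 and 36.4, then 323.8 and 326.4, at least 9.53-fold. AT4G25680, of a family of thiol peptidases, was the dimmest member in tubes, at 204.5 and 214.2 from between 49.7 and 55.7 in pollen (4.20-fold). Its replicates were close together at every stage.

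**Figure D4:**
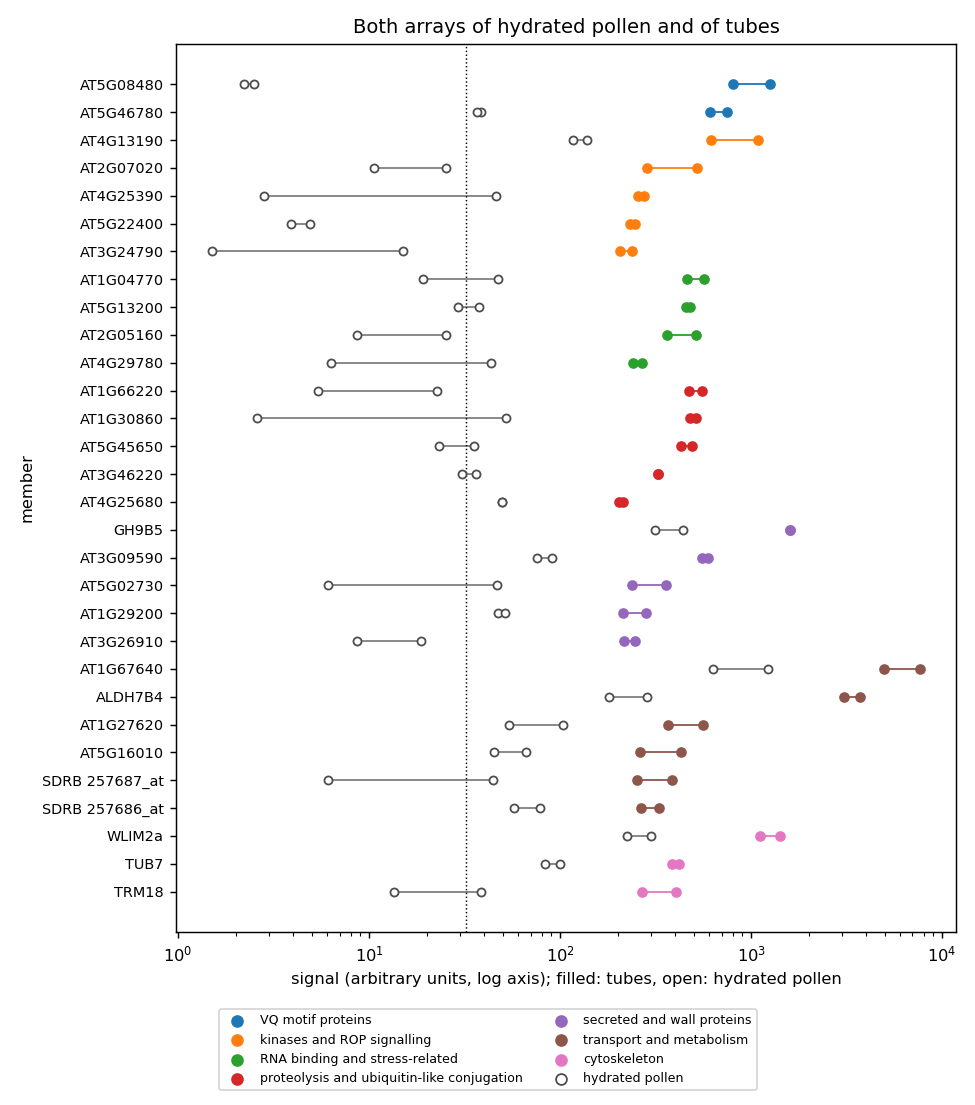
Each row is 1 of the 30 members with a role given, with open circles for the 2 hydrated arrays and filled circles for the 2 tube arrays on a log axis of signal in arbitrary units, coloured by role, and a dotted line at 32. In every row both filled circles lie to the right of both open ones, and AT1G67640 is the brightest at 4956.3 and 7679.3.

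Genes grouped here under secreted or wall proteins had folds from 4.29 to at least 7.51. Whether each product is secreted or lies in the wall was not tested. GH9B5, a glycosyl hydrolase of the endoglucanase type, which acts on wall glucans, was the brightest of the 5. It read 734.7 and 384.6 in mature pollen, 440.5 and 315 in hydrated pollen, and 1589.8 and 1606.8 in tubes (4.29-fold). AT3G09590 and AT5G02730 belong to the CAP family of secreted cysteine-rich proteins. AT3G09590 read 71.4 and 61.2, then 90.9 and 75.4, then 553.1 and 593.8 (6.92-fold). AT5G02730 was dimmer, at 33.8 and 21.4, then 46.8 and 6.1, then 236.7 and 357 (at least 7.51-fold).

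AT1G29200, of the O-fucosyltransferase family, read between 35.8 and 55.6 in pollen and 281 and 214.2 in tubes (4.97-fold). AT3G26910, a hydroxyproline-rich protein, read no more than 18.8 in pollen and 216.2 and 245.2 in tubes (at least 7.20-fold). Mature and hydrated arrays overlapped in AT1G29200, and in AT3G26910 both hydrated arrays lay above both mature arrays, all at background.

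Transport and metabolism held the brightest named member. AT1G67640, an amino acid transporter of the lysine and histidine transporter family, read 757.7 and 582.3 in mature pollen, 633.1 and 1224.7 in hydrated pollen, and 4956.3 and 7679.3 in tubes (7.01-fold). By mean tube signal it ranked 204 among all probe sets that are not controls. ALDH7B4, an aldehyde dehydrogenase known for detoxifying aldehydes under osmotic and oxidative stress, read 177.1 and 143.8, then 285.1 and 180.2, then 3717.8 and 3069.6 (14.9-fold). Both of its hydrated arrays lay slightly above both mature arrays, while AT1G67640 overlapped between those stages.

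SDRB, a peroxisomal short-chain dehydrogenase-reductase, was the only member gene with 2 probe sets. On 257687_at it read 5.5 and 41.6, then 6.1 and 44.4, then 253.2 and 385.2, at least 8.29-fold. On 257686_at it read 110.1 and 56.9, then 57.5 and 78.7, then 328.7 and 265.4, which is 4.39-fold. Both probe sets met the rule. The first is the one given above as not called by limma, and on it the pollen arrays of number 1 were far below those of number 2. AT1G27620, of the HXXXD acyltransferase family, read between 48.4 and 104 in pollen and 368 and 561.2 in tubes (6.05-fold). AT5G16010, of a steroid reductase family, read between 45.3 and 66.1 in pollen and 431.6 and 262.9 in tubes (6.16-fold).

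The cytoskeleton was represented by 3 members. WLIM2a, a LIM-domain protein that binds and bundles actin, read 216.7 and 286.2 in mature pollen, 299.2 and 225.2 in hydrated pollen, and 1424.1 and 1108.8 in tubes (4.84-fold). TUB7, a beta-tubulin, read 60.8 and 53.7, then 99.8 and 83.1, then 386.6 and 421.7 (4.43-fold), with the hydrated arrays already above the mature ones. TRM18, of a family that recruits the TON complex to microtubules, read 20.7 and 1.6, then 38.4 and 13.5, then 268.4 and 403.5. The difference of TRM18 was at least 9.39-fold, and TRM18 is also among the members given above as not called by limma.

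**Figure D5:**
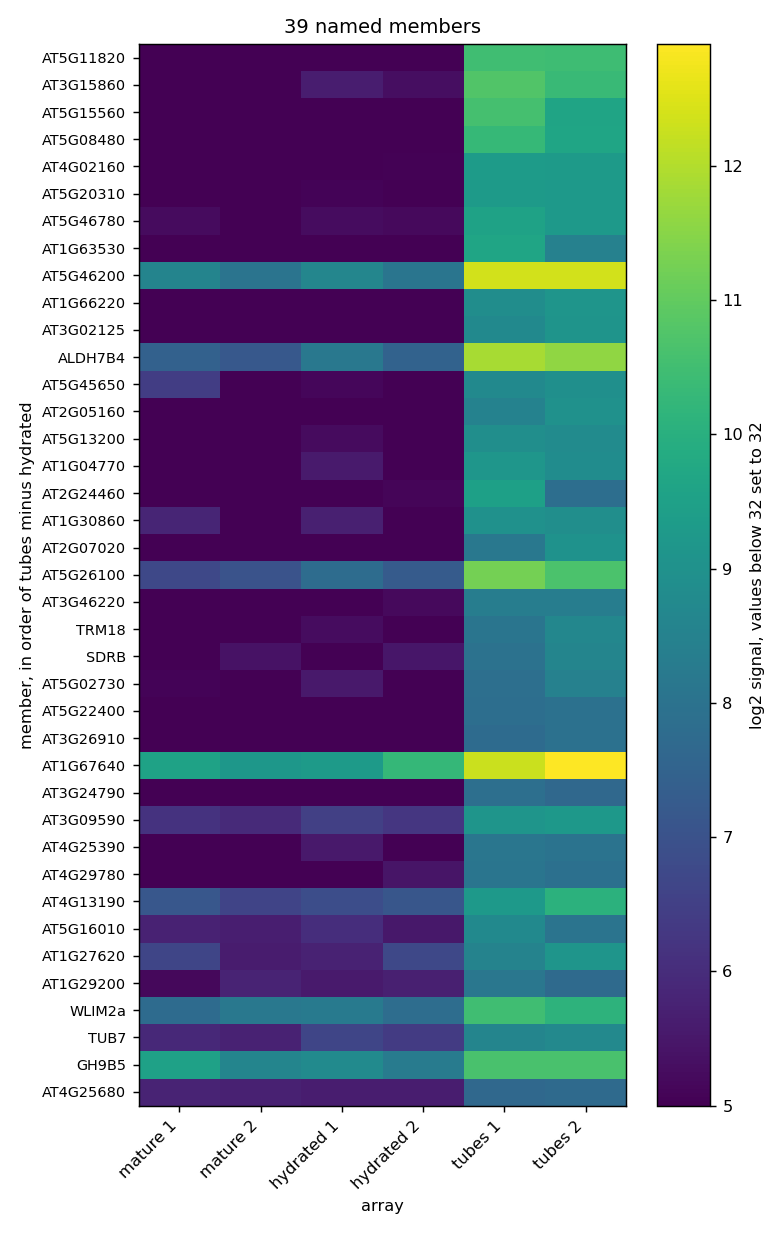
Rows are the 39 members chosen by rule to be given by array, in order of tubes minus hydrated pollen, columns are the 6 arrays, and colour is log2 signal with values below 32 set to 32. The 2 tube columns are brighter than the 4 pollen columns in every row, and some rows, among them AT5G46200, ALDH7B4, AT1G67640 and GH9B5, have clear signal in pollen.

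The remaining 10 probe sets with 1 gene had mean tube signals between 296.05 and 631.15 and folds from 4.19 to at least 10.3. One of them is the second probe set of SDRB, given above. Of the 48 genes, AT1G67640 and AT1G67670 lie closest together, with 2 protein-coding genes between them in the reference table, and no member genes were direct neighbours.

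Probe sets that stand for several genes included the member with the highest rise of all. That probe set, 263397_s_at, read 51.8 and 2.9 in mature pollen, 26.8 and 29.2 in hydrated pollen, and 2978.7 and 4116.3 in tubes, at least 109-fold. In 3 of the 5 such members every gene paired with the probe set is of the GDSL family of esterases and lipases, secreted enzymes that act on lipid and wall esters. Rises in these 3 lay between 3.78 and 6.77 on the log2 scale. The share of such probe sets among all those that stand for several genes is not given here, so nothing is read from the count. The signal cannot be divided among the genes of a probe set, and none of them is named here. Probe sets designed to match related genes made up 8.13% of the members and 4.11% of all probe sets.

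Unnamed members spanned a similar range, with rises between 2.003 and 6.59 on the log2 scale and a median of 3.28, against 3.20 in those with 1 gene. The 3 with the highest rises were 249584_s_at, 246884_at and 254439_s_at. The first read 57.4 and 25.6, then 44.5 and 64.9, then 4799.9 and 5596.6. The second read 33.5 and 43.2, then 68.4 and 35.5, then 4820.7 and 3895.9, and the third read no more than 29.9 in pollen and 1996.4 and 1672.2 in tubes. The highest pollen signal of any of the 3 was 68.4.

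From 7 lists covering tube transcription factors, guidance receptors, integrity signalling, calcium transport, ROP switches, wall building and proton pumps, 13 of 52 listed genes were named, in 3 lists, and 0 were members, where members are 0.541% of all probe sets and nothing is read from the count. Of the 13, 1 was at least 1 higher on the log2 scale in tubes than in hydrated pollen and 0 were at least 1 lower, against 3.47% and 2.8% of all probe sets. Their median difference was 0.13, against 0 over all probe sets. ANX1 and ANX2 are receptor-like kinases that keep the tube from bursting early. ANX1 read 2716.3 and 2946.9 in mature pollen, 3029.1 and 3517.5 in hydrated pollen and 5685.7 and 4935.5 in tubes, and ANX2 read 7308.1 and 8213.2 in tubes from between 7428.2 and 8838.4 in pollen. The 1 gene past that limit was AT4G08850, a receptor kinase of the guidance list, at 16.5 and 3.9 in hydrated pollen and 73 and 60.8 in tubes, below the 200 that the rule required.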

How the data were processed

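The authors deposited a linear signal intensity for each probe set on each of 6 ATH1 arrays. Per the submitters' processing notes, GCOS 1.0 and MAS5 were used. The mean without the lowest and highest 2% of values was between 100.023 and 100.029 on every array, as separate scaling to a common target gives. Further steps are not given in the sources used here, and detection calls were not used here. Of 22810 probe sets, 64 controls were left out.

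Gene names are those of the platform's annotation, brought up to date with a gene table of the TAIR10.1 assembly. The annotation gives 1 gene to 13513 probe sets, of which 13436 matched the table, and several to 503, while 8730 are unnamed here. Planned descriptions of promoters and proteins were not made.

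The rule was applied in Python 3.11.15. For background shares, limma 3.58.1 (R 4.3.3), tested on simulated data, was fitted to log2 intensity, values below 0.1 set to 0.1, with 1 mean per stage and an intensity trend. The simulated data had the same noise in every probe set, lower than that of the tube arrays. They therefore do not show how the fit performs at the noise of these arrays. The limma fit covered 11412 probe sets above their array's 60th percentile on at least 2 arrays. Calls are adjusted p under 0.05 by Benjamini-Hochberg over all of them. The number of arrays limits the precision.

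Members and lists were chosen with earlier results of these data known, and roles were assigned after values had been seen. Given by array are the 20 single-gene members with the highest rise, the 10 with the highest tube mean and up to 5 per role by tube mean, 39 in all, with the 3 unnamed members of highest rise and the probe sets nearest each limit. The GDSL group, AT1G67670 and 259018_at were singled out after seeing their values.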

Additional observations from a re-analysis of the deposited data

How the results depend on the processing

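The number of members stayed within 1.5 times of 123 under other floors, scalings and hydration limits, at 107 with values below 16 set to 16, 141 with 64, 122 with a common 75th percentile and 118 after quantile normalization, of which 107, 113, 112 and 113 were among the 123. It fell to 75 with a rise of at least 3 and to 65 with both tube arrays above 400. Leaving out 1 array gave 119 to 173 probe sets, the most without tube array 2, and the arrays of number 1 or 2 alone, an alternative chosen after seeing the data, gave 151 and 148.

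Limma called 115 members higher in tubes, 123 with the replicate number as a block, and 290 and 775 of all tested probe sets. The labels do not say whether arrays with the same number share an origin, and their deviations from the stage means correlated at 0.174 to 0.221 across probe sets. Without the intensity trend limma called 0 members and 0 of all, with 120 and 769 higher at an unadjusted p under 0.05. Calls ranged from 27 to 119 members and from 51 to 371 of all when 1 array was left out. Calls of members were 27 without tube array 1 and 39 without tube array 2. Of all probe sets, 51 and 77 were then called, and 146 or 160 if the first or the second hydrated array was left out instead. The other alternatives moved neither count by over 1.5 times. The 39 named members kept a positive difference under all 3 alternatives run on them, a sign that the rule all but fixed. The lowest was 1.71, with values below 64 set to 64. The difference stayed at least 2 in 39 with a common 75th percentile, in 38 after quantile normalization and in 33 with values below 64 set to 64.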
